A study of Oncorhynchus mykiss with 60 samples.

Results

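The most animal section of rainbow trout (Oncorhynchus mykiss) embryos, section A, was compared between 3 days post fertilization (3 dpf) and 1 dpf. The study cut eggs and embryos into 5 sections along the animal to vegetal axis, lettered A at the animal end to E at the vegetal end, and sequenced each section as its own library. The 3 dpf group holds 3 section A libraries of mid-blastula embryos of about 1000 cells, and the 1 dpf group holds 3 section A libraries of early blastula embryos of about 32 to 64 cells. The 6 libraries were chosen by their labels, out of 55 analysed, and no measured value entered the choice. No strain, genotype, parent or treatment is given for any group, and how far the spread behind the p-values is technical cannot be told from the labels, which call the samples biological replicates. Section A of the 0 hpf egg (3 libraries) and of 1 hpf (2 libraries) gave the levels before cleavage. Sections B and E of 3 dpf and 1 dpf were used where the stage change in A was set against that elsewhere. Sections of the same stage and replicate number were taken as the same embryo.

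At the animal end of a fish egg lies the blastodisc, the cap of cytoplasm that cleaves into the blastoderm. The first cleavages of a fish embryo run on RNA and protein laid down in the egg. During the blastula stages the embryo starts transcription from its own genome, driven by egg-supplied factors such as Pou5f3, Sox19b and Nanog in zebrafish, while much of the egg's RNA is degraded. The first signals between cells (Nodal, BMP, FGF and Wnt), the outer enveloping layer and the yolk syncytial layer beneath the blastoderm arise in the same period. Salmonids carry duplicate copies of many genes from a whole-genome duplication in their ancestor, and such copies are given here with their identifier. Roles named below are those known from zebrafish or other vertebrates.

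Total counts were 4595789, 2528003 and 5395611 in the 3 dpf libraries of replicates 1, 2 and 3, and 6062168, 5085938 and 8000044 in those of 1 dpf. Levels are given as CPM, counts per 1000000 of the TMM-scaled library total, and the libraries are listed in the order of their replicate numbers; levels at 0 hpf were scaled over all 55 libraries. A gene at 0 in 1 library lay below 3 counts, which is 0.375 to 1.19 CPM of unscaled total in these libraries. The 1 dpf library of replicate 3 stood apart from the other two of its stage. It correlated with them at r = 0.918 and 0.923 on log2 CPM, against 0.983 between the other two, and it had counts of 22661 genes against 23226 and 23189. The 3 dpf libraries correlated at 0.943 to 0.962. The 1 dpf section B library of replicate 3 also had counts of fewer genes than those of replicates 1 and 2 (22548 against 23234 and 23106). Calls and list counts that changed without this library are given beside the results, and so are printed fold changes of list members that it moved by over 1.5 times. The identity of the section could be checked with few markers, since just 6 genes of late differentiated tissue, follicle cells, blood and liver were in the table and passed the filter on low counts. Summed over the 4 markers of differentiated tissue the level was 148, 164 and 47.6 CPM at 3 dpf, against 198, 222 and 59.2 CPM at 1 dpf, most of it from the muscle creatine kinase copies of ckmb. The follicle list was left with cyp26a1 alone, at 110, 152 and 181 CPM at 3 dpf, against 63.8, 64.7 and 58.7 CPM at 1 dpf. It was also at 49.9 to 55.6 CPM in the 0 hpf libraries. The gene is not specific to follicle cells, so its level is no check for them. The liver marker tfa was under 30 CPM in all 6 libraries. Whether such cells had a part in any result was not tested.

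Of 21844 genes tested, 6026 (27.6%) were higher and 5516 (25.3%) lower at 3 dpf than at 1 dpf, at an adjusted p under 0.05 in edgeR's quasi-likelihood test with Benjamini-Hochberg adjustment, the test behind every adjusted p below. These shares, 27.6% higher and 25.3% lower, are the background for the list counts below. The rises were the larger changes. At least 8-fold differences were reached by 1188 of the higher genes and by 31 of the lower genes, and at least 32-fold differences by 266 and 0, and the largest fall was -4.28 on the log2 scale. The 3 libraries of one stage all lay above the 3 of the other for 11439 of the 11542 called genes, against 13768 of all tested genes (63.0%). Scaling by library totals alone in place of TMM moved the median log2 fold change by -0.32 and gave 4603 higher and 7784 lower genes, so that 37.2% of calls were higher, against 52.2% with TMM. Values are therefore relative to the other genes of the section, and fewer cells of a type and less RNA per cell cannot be told apart in them. Without the 1 dpf library of replicate 3, 6476 genes were higher and 5666 lower.

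The direction of change went with the level in the egg. Of 1025 tested genes that were under 1 CPM in every 0 hpf section A library, 772 (75.3%) were higher at 3 dpf and 15 (1.46%) were lower, with a median log2 fold change of 3.54. Together these genes took 2.36%, 2.48% and 2.33% of the counts at 3 dpf, against 0.438%, 0.358% and 0.0852% at 1 dpf. Their share was 0.136% and 0.0826% in the 1 hpf libraries, so replicate 3 of 1 dpf lay between those. At 0 hpf it was 0.022 to 0.0238%, a low share that the definition of the class sets. All 3 libraries of 3 dpf lay above all 3 of 1 dpf in this share, and within 1 dpf replicate 3 was the lowest. Of 14005 genes that averaged over 10 CPM at 0 hpf, 3438 (24.5%) were higher and 4600 (32.8%) lower, with a median of -0.16. The 6814 genes between these levels gave 1816 higher and 901 lower genes with a median of 0.06. Genes low in the egg could pass the filter on low counts through the 3 dpf libraries alone, so the counts of that class are a description. The same limit applies to members of the gene lists below that were low in the egg. Without the 1 dpf library of replicate 3, that class had 813 higher and 35 lower genes.

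**Figure D1:**
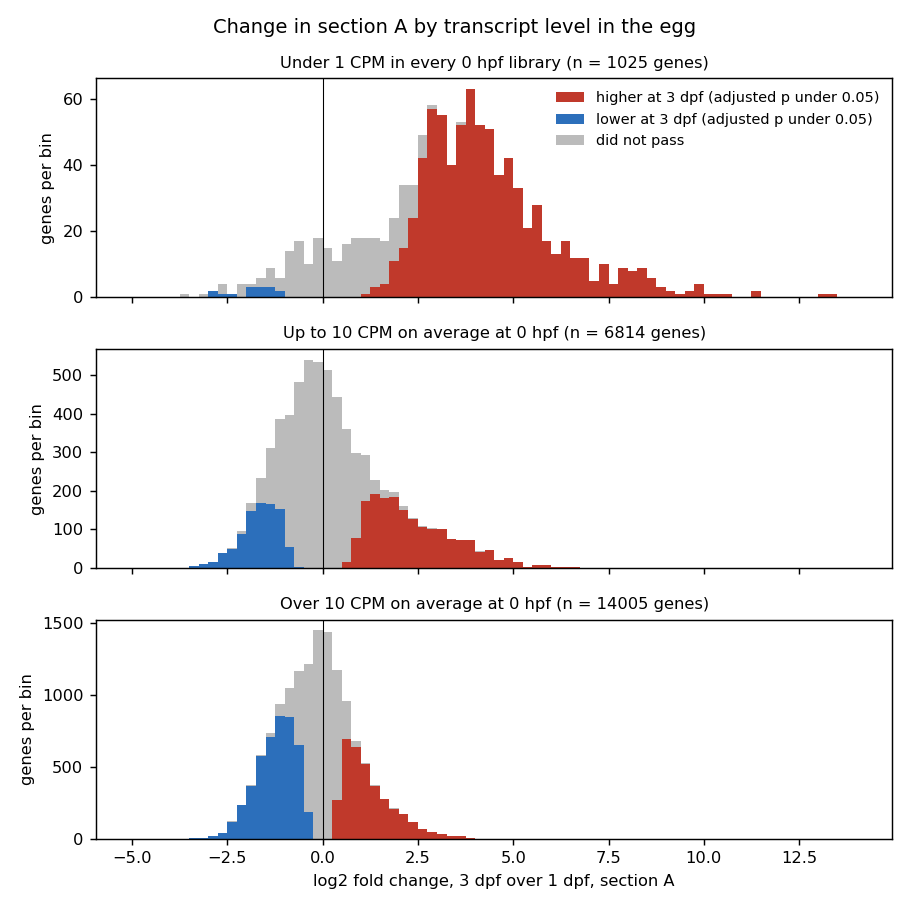
Histograms of the log2 fold change in section A (3 dpf over 1 dpf, x axis) for genes in 3 classes of 0 hpf level, with the number of genes per bin of 0.25 on the y axis and colour by the test's call. The class under 1 CPM in the egg has its median at 3.54 and reaches past 12, whereas the class over 10 CPM is centred near 0 (median -0.16) with 4600 genes lower at 3 dpf.

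The 12 genes with the largest rises, among named genes of at least 5 CPM, were 4 apolipoprotein genes, slc22a5, admp, ndr1, id1, ved, bhlhe22 (LOC110489682), krt5 and ftr14. The carnitine transporter slc22a5 was at 371, 234 and 67.9 CPM at 3 dpf and had no count in any 1 dpf library. It was at least 1590-fold higher, where the bound sets 3 counts over the whole 1 dpf group as its floor. The apolipoprotein gene apoa-i-1, which encodes the main protein of high-density lipoprotein, was at 145, 346 and 107 CPM at 3 dpf and also without a count at 1 dpf (at least 1420-fold). Both copies of apoc1 had none at 1 dpf either, and apoc1 (LOC110537939) stood at 75.1, 66.9 and 47.8 CPM at 3 dpf (at least 449-fold) and apoc1 (LOC110510206) at 37.5, 59.2 and 86.8 CPM (at least 435-fold). The lipid carrier apoe was at 357, 445 and 575 CPM at 3 dpf, against 0.146, 0.708 and 0.226 CPM at 1 dpf, a log2 fold change of 10.34 (SE 0.37, adjusted p = 7.15e-06). These 4 apolipoprotein genes thus stood at 37.5 CPM or more in each 3 dpf library and under 1 CPM in each 1 dpf library. The naming rule required groups that do not overlap. Of the others, the neural factor bhlhe22 (LOC110489682) was at 45.3, 23 and 10.2 CPM at 3 dpf without a count at 1 dpf (at least 186-fold). The finTRIM gene ftr14 was at 187, 98.5 and 25.6 CPM at 3 dpf, with 2 reads in all at 1 dpf (0, 0.354 and 0 CPM). Over all tested genes, 30 of the higher genes had no count at 1 dpf and 70 had 1 to 3 counts, and no lower gene was without a count at 3 dpf. The log2 fold change of apoe was 11.07 without 1 dpf replicate 2.

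Nodal ligands, signals of the TGF-beta family that induce mesoderm and endoderm, were close to silent at 1 dpf and measurable in each 3 dpf library. The Nodal ligand ndr1 was at 37.3, 21.2 and 6.3 CPM at 3 dpf and without a count at 1 dpf, at least 154-fold higher (adjusted p = 0.0011). The second ndr1 copy, ndr1 (LOC110509752), was at 21.2, 9.49 and 24.4 CPM at 3 dpf, against 0, 0.531 and 0 CPM at 1 dpf. For ndr2 (LOC110515024) the levels were 13.9, 9.49 and 20.7 CPM at 3 dpf, against 0, 0.177 and 0.113 CPM at 1 dpf (adjusted p = 7.33e-05). The groups did not overlap for any of the 3 ligand genes, as for 63.0% of all tested genes, and for ndr1 the naming rule required it. The 3 dpf library of replicate 3 was lowest for ndr1 and highest for ndr1 (LOC110509752) and ndr2 (LOC110515024). The Nodal feedback inhibitor lft1 rose less, to 14.9, 20.3 and 26.4 CPM at 3 dpf, against 5.71, 4.25 and 0.679 CPM at 1 dpf (log2 2.56, SE 0.62, adjusted p = 0.00876).

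Named endoderm regulators were also higher. The endoderm-specifying factor sox32 was at 56.3, 34.8 and 29.5 CPM at 3 dpf, against 0.146, 0.354 and 0 CPM at 1 dpf, and sox32 (LOC110535014) at 40.5, 17.2 and 29.7 CPM, against 0, 0.177 and 0 CPM. The GATA factor gata5 was at 42.7, 22.6 and 23.6 CPM at 3 dpf, against 0.146, 0.708 and 0.113 CPM at 1 dpf (log2 6.58, SE 0.57, adjusted p = 5.99e-05). The endoderm factor sox17 stood at 39.5, 23.5 and 46.5 CPM at 3 dpf, against 1.46, 0.884 and 2.49 CPM at 1 dpf (log2 4.44, SE 0.42, adjusted p = 8.52e-05). In each of these genes the lowest 3 dpf library lay far above the highest 1 dpf library. They were chosen for a small adjusted p, which favours this, and groups did not overlap for 63.0% of all tested genes. Some receptors and transducers of the pathway did not pass: acvr1bb (LOC110532699) averaged 298 ± 45.4 CPM at 3 dpf and 246 ± 3.2 CPM at 1 dpf (SD, n = 3 each, adjusted p = 0.0892), and smad2 (LOC101268919) 136 ± 19.4 CPM and 124 ± 8.59 CPM (adjusted p = 0.423). Of 27 Nodal and endoderm genes tested, 19 were higher and 1 lower (the receptor acvr2aa), with a median log2 fold change of 2.56, against 27.6%, 25.3% and -0.05 over all tested genes. Members low in the egg, such as ndr1 and sox32, could pass the filter on low counts through the 3 dpf libraries alone. Among all tested genes under 1 CPM in every 0 hpf library, 75.3% were higher. For gata5 the log2 fold change was 7.62 without 1 dpf replicate 2.

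BMP signalling genes, which set the dorsal to ventral axis, gave some of the largest rises. The BMP target id1, an inhibitor of bHLH factors, was at 326, 421 and 354 CPM at 3 dpf, against 1.02, 0.354 and 0.113 CPM at 1 dpf (log2 9.53, SE 0.36, adjusted p = 7.15e-06), and the other 3 id1 copies were also higher. The ventral homeobox repressor ved was at 261, 303 and 187 CPM at 3 dpf, against 0.439, 0 and 0.226 CPM at 1 dpf (log2 9.92, SE 0.4, adjusted p = 7.15e-06). Its relatives vent and vox reached 676, 831 and 677 CPM and 425, 508 and 406 CPM at 3 dpf, against 5.86, 4.25 and 0 CPM and 8.93, 3.89 and 0.113 CPM at 1 dpf. All 3 repressors thus stood at over 180 CPM in each 3 dpf library and under 10 CPM in each 1 dpf library. The pseudoreceptor bambia, a BMP feedback inhibitor, was at 242, 304 and 179 CPM at 3 dpf, against 5.42, 4.6 and 2.15 CPM at 1 dpf (log2 5.92, SE 0.35). The ligand bmp4 rose to 55.6, 45.2 and 32.5 CPM at 3 dpf, against 12.2, 16.3 and 9.05 CPM at 1 dpf (log2 1.84, SE 0.29, adjusted p = 0.00102). Without 1 dpf replicate 1, the log2 fold change was 10.64 for id1 and 10.6 for ved.

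Dorsal genes of the same list rose with more spread between embryos. The organizer ligand admp was at 72.2, 34.3 and 3.45 CPM at 3 dpf and without a count at 1 dpf (at least 260-fold, adjusted p = 0.00434). The BMP antagonist chrd (LOC110507926) was at 16.8, 72.7 and 115 CPM at 3 dpf, against 0.293, 0.354 and 0.113 CPM at 1 dpf, and the organizer factor gsc at 11.5, 26.2 and 46.5 CPM, against 3.81, 5.66 and 0 CPM. At 3 dpf, replicate 3 was thus the lowest of the libraries for admp and the highest for chrd and gsc. The transducers smad1 (81.9 ± 7.89 CPM at 3 dpf and 80.9 ± 12.2 CPM at 1 dpf, SD, n = 3 each) and smad5 (LOC110504484) (119 ± 2.6 and 98.4 ± 5.34 CPM) did not pass, with adjusted p = 0.938 and 0.0621, and smad5 (LOC110504484) passed without the 1 dpf library of replicate 3 (log2 0.34, adjusted p = 0.0389). Of 29 genes of the list, 22 (75.9%) were higher and 2 (6.9%) lower (the Wnt antagonist copy frzb (LOC110520325) and tsku), with a median log2 fold change of 4.73. Over all tested genes the shares were 27.6% and 25.3%. Members low in the egg, such as admp, ved and id1, could pass the filter on low counts through the 3 dpf libraries alone. Among all tested genes under 1 CPM in every 0 hpf library, 75.3% were higher.

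**Figure D2:**
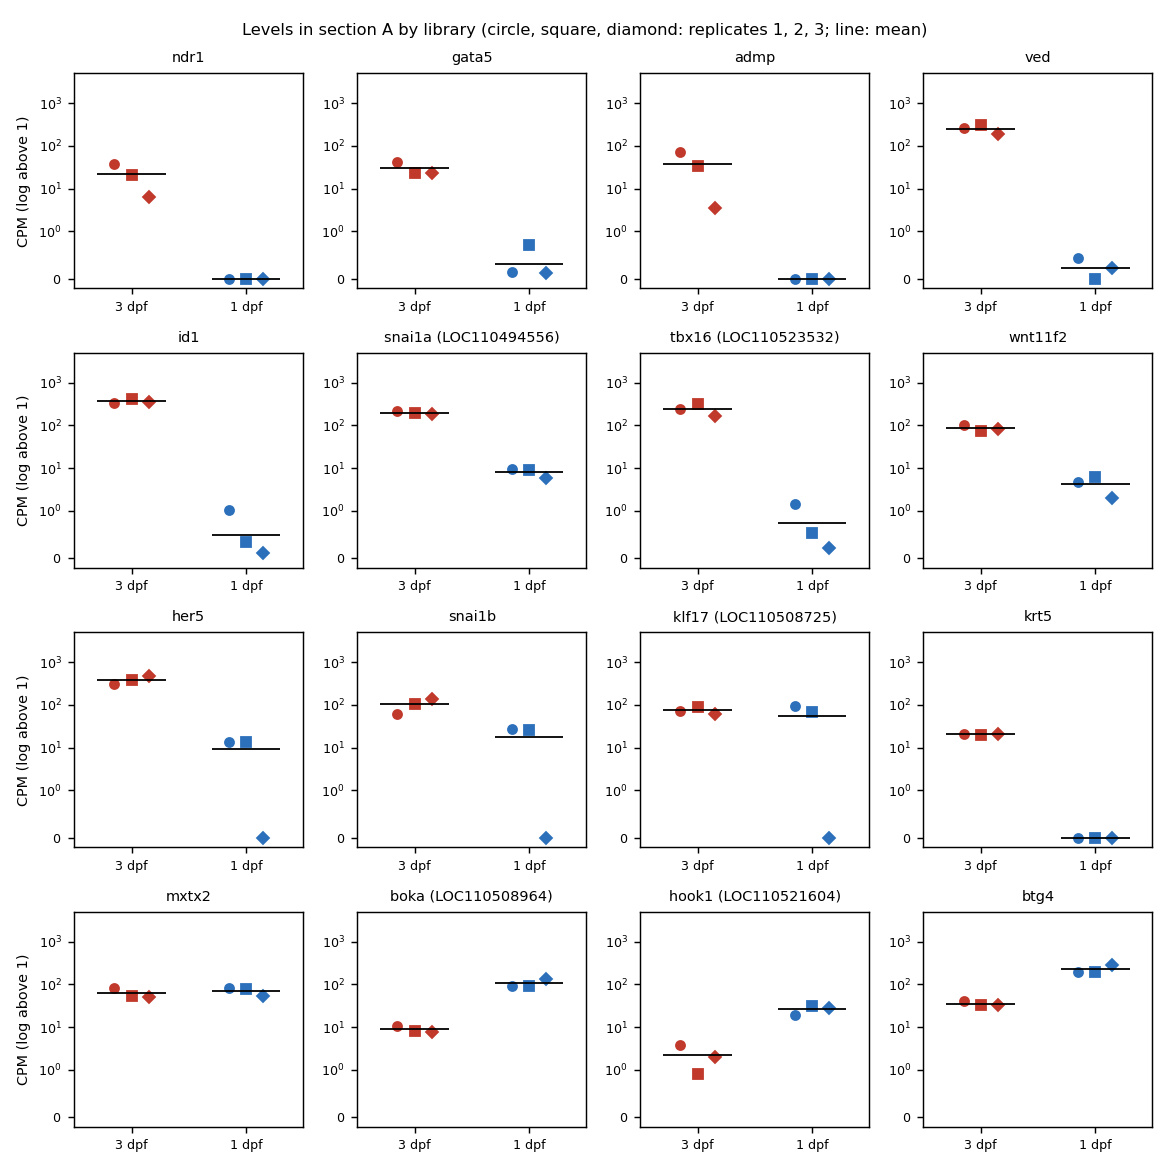
CPM per library (y axis, logarithmic above 1 and linear below) of 16 genes in section A, at 3 dpf on the left and 1 dpf on the right of each panel; circles, squares and diamonds are replicates 1, 2 and 3 and lines are means. Signalling genes such as ndr1, ved and id1 lie near 0 in every 1 dpf library, her5, snai1b and klf17 (LOC110508725) are near 0 in replicate 3 of 1 dpf and not in the other two, and boka (LOC110508964), hook1 (LOC110521604) and btg4 are lower at 3 dpf.

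Most FGF and mesoderm genes of the list were higher. The T-box factor tbx16, needed for paraxial mesoderm, was at 192, 245 and 231 CPM at 3 dpf, against 4.39, 1.42 and 0.679 CPM at 1 dpf (log2 6.71, SE 0.47, adjusted p = 2.35e-05), and the other 3 tbx16 copies also rose. The ligand fgf8a (LOC110502398) was at 36.3, 42.9 and 63 CPM at 3 dpf, against 1.17, 0.531 and 0 CPM at 1 dpf (log2 6.43, SE 0.64, adjusted p = 0.000111). The phosphatase dusp6, a feedback inhibitor of FGF signalling, was higher at 84.8, 120 and 126 CPM at 3 dpf, against 5.27, 2.3 and 0 CPM at 1 dpf, and the ETS factor etv4 at 23.4, 41.6 and 33.9 CPM, against 0.879, 0.354 and 0 CPM. The E-cadherin repressor snai1a (LOC110494556) was at 219, 197 and 181 CPM at 3 dpf, against 9.52, 8.84 and 6 CPM at 1 dpf (log2 4.63, SE 0.2, adjusted p = 7.15e-06). Its relative snai1b did not pass (adjusted p = 0.0533), at 62.7, 107 and 140 CPM at 3 dpf, against 26.8, 25.3 and 0 CPM at 1 dpf, and passed without the 1 dpf library of replicate 3 (log2 2.01, adjusted p = 0.000498). The receptor copy fgfr1b (LOC110523426) averaged 84.6 ± 14.8 CPM at 3 dpf and 77.2 ± 6.31 CPM at 1 dpf (SD, n = 3 each, adjusted p = 0.498). Of 37 genes tested, 28 (75.7%) were higher and 4 (10.8%) lower, against 27.6% and 25.3% of all tested genes. Members low in the egg, such as tbx16, could pass the filter on low counts through the 3 dpf libraries alone. Among all tested genes under 1 CPM in every 0 hpf library, 75.3% were higher. The median log2 fold change was 3.63. The 4 lower genes were fgfr1a (LOC110525633), etv5a, il17rd and msgn1. The log2 fold change of tbx16 was 7.8 without 1 dpf replicate 1, and that of fgf8a (LOC110502398) was 7.67 without it and 5.75 without 1 dpf replicate 3. Without 1 dpf replicate 3, fgfr1a (LOC110525633) did not pass (log2 -0.5, adjusted p = 0.0823).

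Wnt genes changed in both directions. The non-canonical ligand wnt11f2, which guides cell movements of gastrulation in zebrafish, was at 101, 75 and 81.3 CPM at 3 dpf, against 4.69, 6.19 and 2.04 CPM at 1 dpf (log2 4.36, SE 0.35, adjusted p = 4.4e-05). The Wnt antagonist dkk1b (9.26, 4.07 and 26 CPM at 3 dpf, against 0.293, 1.59 and 0 CPM at 1 dpf) and the receptor fzd3a (13.2, 14 and 16.3 CPM, against 0.879, 1.06 and 0.113 CPM) were also higher. The transducer ctnnb1 (LOC110512888), beta-catenin, rose by a smaller amount, with 274, 295 and 296 CPM at 3 dpf, against 153, 141 and 141 CPM at 1 dpf (log2 0.99, SE 0.1, adjusted p = 0.000112). Members that fell included the ligand wnt3 (6.83, 8.13 and 3.05 CPM at 3 dpf, against 35.9, 41.9 and 15.8 CPM at 1 dpf) and tcf7l1a (LOC110536043), a nuclear partner of beta-catenin (7.31, 7.23 and 6.1 CPM, against 28.1, 27.8 and 19.5 CPM). Another copy, tcf7l1a, went the other way, at 128, 130 and 121 CPM at 3 dpf, against 54.3, 49.7 and 32.8 CPM at 1 dpf (log2 1.47, SE 0.19). In all, 16 of 33 (48.5%) were higher and 5 (15.2%) lower, against 27.6% and 25.3% of all tested genes. The median log2 fold change was 1.13.

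The count of ectoderm and neural genes depended on 1 library. With all 6 libraries, 10 of 30 were higher (33.3%, against 27.6% of all tested genes) and 4 lower, and without the 1 dpf library of replicate 3, 16 of 31 were higher and 6 lower. The neural plate repressor her5 was at 307, 386 and 479 CPM at 3 dpf, against 13.6, 13.6 and 0 CPM at 1 dpf (log2 5.49, SE 0.86, adjusted p = 0.00102). Both zic2b copies, zinc-finger factors of the neural ectoderm, rose, with zic2b (LOC110495361) at 204, 274 and 422 CPM at 3 dpf, against 8.93, 10.3 and 1.58 CPM at 1 dpf. The groups did not overlap for her5 or either zic2b copy, as for 63.0% of all tested genes. The early neural homeobox genes otx1 and otx1 (LOC118943942) fell, otx1 to 16.1, 6.32 and 8.74 CPM at 3 dpf, against 55.8, 50.8 and 36.1 CPM at 1 dpf (log2 -2.16, SE 0.34, adjusted p = 0.000999). In the other direction, otx2b (LOC110529854) was at 82.6, 68.2 and 60.2 CPM at 3 dpf, against 5.56, 5.48 and 0.113 CPM at 1 dpf (log2 4.31, SE 0.72, adjusted p = 0.00142). The pluripotency factor sall4 was at 793, 1000 and 1130 CPM at 3 dpf, against 347, 383 and 294 CPM at 1 dpf (log2 1.51, SE 0.16), and its copy sall4 (LOC110492058) did not pass (adjusted p = 0.188). Without 1 dpf replicate 3, the log2 fold change was 4.86 for her5 and 3.68 for otx2b (LOC110529854).

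Some genes low in the egg were already present at 1 dpf. Among genes under 1 CPM in every 0 hpf library, 57 reached 10 CPM in the 1 dpf libraries of replicates 1 and 2, and 43 of them were at 1 CPM or less in that of replicate 3. At 1 hpf, 18 of the 57 were at 10 CPM or more in at least 1 library and 31 were at 1 CPM or less in both; 7 were at 10 CPM or more in both, and these 7 were also at 10 CPM or more in replicate 3 of 1 dpf. These genes were picked by their 1 dpf values after the data were seen, so their counts are a description. Their median level was 26.6, 25.3 and 26.6 CPM at 3 dpf, against 19.2, 16.3 and 0.113 CPM at 1 dpf. In 27 of the 57 all 3 dpf libraries lay above both of these 1 dpf libraries, and in 22 they lay below both. The forkhead gene foxq1a was among those below, at 1.95, 3.16 and 4.27 CPM at 3 dpf, against 58.3, 31.3 and 0.113 CPM at 1 dpf (adjusted p = 0.0716, and 3.2e-05 without replicate 3 of 1 dpf). The enveloping layer factor klf17 (LOC110508725) overlapped with them, at 71.9, 88.1 and 61.6 CPM at 3 dpf, against 95.9, 69.3 and 0 CPM at 1 dpf. The germ cell regulator nanos3 (LOC118938533) was above, at 61.2, 143 and 130 CPM at 3 dpf, against 24.7, 16.6 and 0 CPM at 1 dpf.

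The enveloping layer is the first epithelium of the fish embryo, and its keratins, junction proteins and transcription factors moved in different directions. The basal keratin gene krt5 was at 20.7, 19.9 and 20.9 CPM at 3 dpf and had no count at 1 dpf (at least 146-fold, adjusted p = 4.36e-05), with nearly equal levels in the 3 embryos. The keratin s1, which the ortholog table pairs with zebrafish krt8, was at 65.8, 95.8 and 54.1 CPM at 3 dpf, against 6.15, 3.18 and 2.04 CPM at 1 dpf (log2 4.25, SE 0.41). The cornified envelope protein evpla was at 64.9, 99.8 and 111 CPM at 3 dpf, against 0.293, 0 and 2.04 CPM at 1 dpf (log2 6.63, SE 0.63, and 8.96 without the 1 dpf library of replicate 3), and the tight junction claudin cldne at 156, 212 and 202 CPM, against 26.5, 10.4 and 0 CPM. Genes for adhesion that were already abundant rose by smaller amounts, such as epcam (log2 0.66, SE 0.12) and cdh1, E-cadherin (log2 0.55, SE 0.13). Several Kruppel-like and Grainyhead-like factors fell, among them klf6a, at 20.2, 19.9 and 18.9 CPM at 3 dpf, against 146, 152 and 236 CPM at 1 dpf (log2 -3.18, SE 0.22, adjusted p = 2.34e-05), and grhl1 (LOC110505324), at 29.5, 36.6 and 45.5 CPM, against 116, 105 and 138 CPM. The egg held klf6a at 101 CPM and grhl1 (LOC110505324) at 116 CPM on average. In contrast another copy, grhl1 (LOC110522062), was higher at 3 dpf (log2 1.88, against -1.68 for grhl1 (LOC110505324)). A further rise was that of grhl3 (LOC110498393), to 108, 143 and 94.3 CPM at 3 dpf, against 26.2, 26.2 and 6.79 CPM at 1 dpf (log2 2.55, SE 0.45, adjusted p = 0.00191). Another copy, grhl3, did not pass, at 99, 119 and 109 CPM at 3 dpf, against 64.6, 37.3 and 1.47 CPM at 1 dpf (adjusted p = 0.134). It passed without the 1 dpf library of replicate 3 (log2 1.1, adjusted p = 0.00241). Of 30 members tested, 18 (60%) were higher and 7 (23.3%) lower, with a median log2 fold change of 1.34. Over all tested genes the shares were 27.6% and 25.3%.

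The yolk syncytial layer forms where marginal cells fuse with the yolk cell, and it exports yolk lipid. Of 12 tested genes of this list, 10 were higher and 0 lower, against 27.6% and 25.3% of all tested genes. The median log2 fold change was 5.30, and 11 were higher without the 1 dpf library of replicate 3. Members low in the egg, such as apoa-i-1, could pass the filter on low counts through the 3 dpf libraries alone. The list shares apoa-i-1 and apoe with the largest rises. The apolipoprotein apoeb was at 194, 129 and 112 CPM at 3 dpf, against 0.293, 0.531 and 0.339 CPM at 1 dpf (log2 8.51, SE 0.35, adjusted p = 7.15e-06). The endodermal factor gata6 (LOC110530508) was at 240, 162 and 71.1 CPM at 3 dpf, against 1.17, 1.59 and 0 CPM at 1 dpf (log2 7.55, SE 0.74, with 6.83 without 1 dpf replicate 3 and 8.17 without 1 dpf replicate 2), and the liver and gut factor hnf4a at 22.2, 8.58 and 3.05 CPM, without a count at 1 dpf. Replicate 3 was the lowest 3 dpf library for all 3 of these genes. The homeobox gene mxtx2, which induces the yolk syncytial layer in zebrafish, did not pass: it was at 80.9, 54.2 and 50.4 CPM at 3 dpf and 81.1, 78.5 and 53 CPM at 1 dpf (log2 -0.19, adjusted p = 0.527), and at 38.8 CPM on average at 0 hpf. Its relative mxtx1 rose to 55.1, 36.1 and 35 CPM at 3 dpf, against 7.76, 10.1 and 4.75 CPM at 1 dpf (log2 2.5, SE 0.32).

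The factors that drive genome activation in zebrafish were abundant at both stages. The pluripotency factor pou5f3 was at 1660, 1920 and 1590 CPM at 3 dpf, against 568, 507 and 524 CPM at 1 dpf (log2 1.69, SE 0.1, adjusted p = 1.42e-05). The nanog gene carried over from the egg was at 383, 424 and 348 CPM at 3 dpf, against 322, 295 and 221 CPM at 1 dpf (log2 0.46, SE 0.15, adjusted p = 0.0339). Its copy nanog (LOC110535236) was at 1420, 1510 and 1480 CPM at 3 dpf, against 259, 222 and 11.5 CPM at 1 dpf (log2 3.17, SE 0.85, adjusted p = 0.0139), and at 11.3 to 19.7 CPM at 0 hpf. The copy low in the egg was thus the higher one in each 3 dpf library and the lower one in each 1 dpf library. The Nodal partner foxh1 also had a copy low in the egg, foxh1 (LOC110490826), but it stayed the lower one at 3 dpf. That copy was at 70, 97.6 and 76 CPM at 3 dpf, against 9.66, 3.71 and 0 CPM at 1 dpf, and foxh1 (LOC110535310) was at 209, 228 and 249 CPM, against 130, 107 and 130 CPM. For sox19a the copy low in the egg stayed the lower one as well. There sox19a (LOC110534223) was at 373, 426 and 310 CPM at 3 dpf, against 86.5, 58 and 0.113 CPM at 1 dpf, and sox19a (LOC110500375) at 593, 633 and 745 CPM, against 464, 410 and 432 CPM. The adjusted p of sox19a (LOC110534223) was 0.0427 with all libraries and 1.13e-05 without the 1 dpf library of replicate 3.

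Other members of this list traded places. The proto-oncogene mycn was at 356, 351 and 335 CPM at 3 dpf, against 9.52, 5.48 and 0 CPM at 1 dpf (log2 6.18, SE 0.76, adjusted p = 0.000317), whereas mycb fell to 100, 75.9 and 75 CPM at 3 dpf, against 231, 217 and 233 CPM at 1 dpf (log2 -1.44, SE 0.14). The partner of Myc, max (LOC110497944), was at 98.3, 93.1 and 107 CPM at 3 dpf, against 25.5, 24.8 and 15.7 CPM at 1 dpf, and its copy max (LOC110529304) at 49, 38.4 and 39.2 CPM, against 110, 109 and 122 CPM. The T-box factor eomesa, an egg-supplied activator of endoderm genes, fell to 71.4, 61.4 and 26.2 CPM at 3 dpf, against 163, 161 and 85.7 CPM at 1 dpf (adjusted p = 0.0164), and eomesb rose to 407, 409 and 486 CPM, against 34, 29.9 and 8.94 CPM (adjusted p = 0.000132). The general factor tbp (LOC110499270) fell to 25.8, 19.9 and 19.7 CPM at 3 dpf, against 97.2, 94.8 and 99.8 CPM at 1 dpf (log2 -2.15, SE 0.16). The coactivators kmt2a and ep300a (LOC110502858) did not pass. Of 59 tested members 30 (50.8%) were higher and 13 (22%) lower, against 27.6% and 25.3% of all tested genes. The median log2 fold change was 0.47, and 20 were higher and 18 lower with library totals alone. The log2 fold change of mycn was 5.52 without 1 dpf replicate 3.

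**Figure D3:**
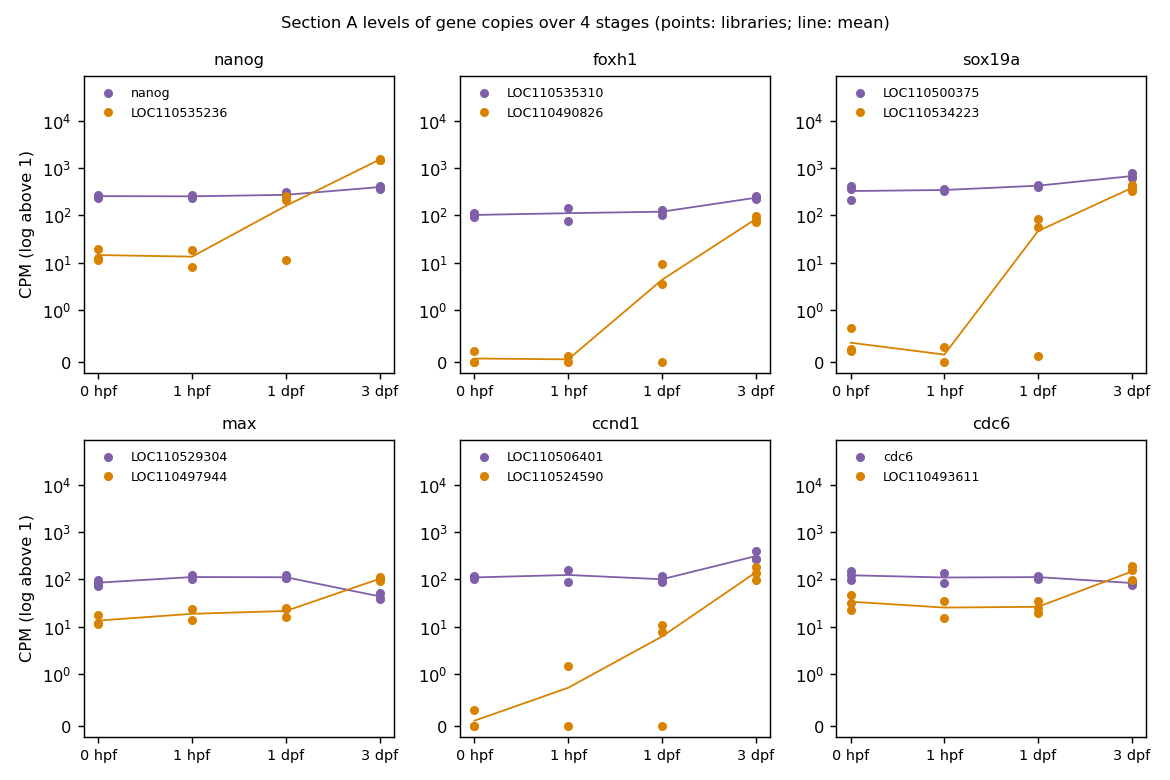
Section A levels (CPM scaled over all 55 libraries, y axis logarithmic above 1) at 0 hpf, 1 hpf, 1 dpf and 3 dpf (x axis) of both copies of nanog, foxh1, sox19a, max, ccnd1 and cdc6, with points for libraries and lines through means. In each pair the copy low at 0 hpf has the steeper rise to 3 dpf, and the low point at 1 dpf in foxh1, sox19a, ccnd1 and nanog is replicate 3.

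Duplicate copies were called in the same direction more often than in opposite directions. Among 2433 names carried by exactly 2 tested copies, both copies were higher in 664 and both lower in 415, and in 165 one copy was higher and the other lower. In a further 356 one copy was higher and in 411 one was lower while the other did not pass, and neither passed in 391. A call in a single copy is not a tested difference between copies. The median difference between the log2 fold changes of the copies was 0.62. Among the pairs of opposite calls, some of the largest differences were in the amino acid transporter slc7a7 (6.66 for slc7a7 (LOC110531642) and -1.03 for slc7a7), the cyclin ccny (5.27 for ccny and -2.03 for ccny (LOC110530249)) and the stem cell factor trim71 (5.61 for trim71 (LOC110496482) and -0.73 for trim71 (LOC118944829)). Sox3 was another, with sox3 (LOC110488760) at 94.4, 109 and 229 CPM at 3 dpf, against 26.6, 22.6 and 2.72 CPM at 1 dpf, and sox3 (LOC110504954) at 42.7, 33.9 and 29.5 CPM, against 128, 148 and 174 CPM. Near-identical copies share reads, and how the counting treated these is not known, so levels of single copies are uncertain.

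The machinery of protein synthesis rose together. Of 173 ribosomal protein genes tested, 166 (96%) were higher at 3 dpf and 3 were lower, against 27.6% and 25.3% of all tested genes, with a median log2 fold change of 3.41. Their summed level was 21100, 24100 and 19100 CPM at 3 dpf, against 2940, 2670 and 2840 CPM at 1 dpf and 2290 to 2980 CPM at 0 hpf. The 1 dpf libraries thus lay within the range of the egg, and all 3 dpf libraries far above it. The large-subunit gene rl7 was at 244, 266 and 238 CPM at 3 dpf, against 19.8, 23.2 and 21 CPM at 1 dpf (log2 3.55, SE 0.13, adjusted p = 7.15e-06). The small-subunit gene rs14 was at 153, 154 and 143 CPM at 3 dpf, against 6.44, 5.66 and 7.92 CPM at 1 dpf (log2 4.47, SE 0.17). A few copies did not follow, such as rpl19 (LOC110491682), at 32.4, 42 and 20.1 CPM at 3 dpf and 39.8, 33.1 and 21.8 CPM at 1 dpf (log2 -0.02, adjusted p = 0.963).

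Genes that build ribosomes moved the same way. Of 116 ribosome assembly genes, 110 were higher and 1 lower, against 27.6% and 25.3% of all tested genes, with a median log2 fold change of 1.76. The nucleolar protein nop56, a core protein of box C/D snoRNA particles, was at 1510, 1700 and 1460 CPM at 3 dpf, against 304, 293 and 305 CPM at 1 dpf (log2 2.37, SE 0.1, adjusted p = 7.15e-06). The box H/ACA protein gene nola3 was at 110, 117 and 101 CPM at 3 dpf, against 4.54, 3.18 and 2.6 CPM at 1 dpf (log2 4.99, SE 0.22). The RNA helicase ddx21 (LOC110499400) was at 819, 907 and 829 CPM at 3 dpf, against 105, 103 and 90.6 CPM at 1 dpf (log2 3.1, SE 0.11). Groups did not overlap in any of these 3 genes, as for 63.0% of all tested genes. Such genes were chosen by their adjusted p or their values, which favours groups that lie apart. Small nucleolar RNAs, which guide the modification of ribosomal RNA, rose as a class: 55 of 71 tested snoRNA genes (77.5%) were higher and 0 lower, against 27.6% and 25.3% of all tested genes. The other 16 did not pass, and the median log2 fold change was 2.91. Their summed level was 863, 887 and 789 CPM at 3 dpf, against 263, 230 and 126 CPM at 1 dpf. By the RefSeq annotation, 63 of the 71 lie inside a longer tested gene, and for all 63 at least 1 such host was higher at 3 dpf. The snoRNA gene LOC118948745 lies inside 8 tested genes, which were not judged singly. Reads of an unspliced host and of the snoRNA inside it cannot be told apart here.

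Translation factors and the splicing machinery also rose. The elongation factor eef1a1b/eef1a1l2 (LOC110496143), which brings aminoacyl-tRNA to the ribosome, was at 2820, 3290 and 2640 CPM at 3 dpf, against 304, 287 and 243 CPM at 1 dpf (log2 3.39, SE 0.13, adjusted p = 7.15e-06), among the most abundant transcripts named here. The translocase eef2b (LOC110530688) was at 1180, 1070 and 1060 CPM at 3 dpf, against 118, 136 and 93.8 CPM at 1 dpf (log2 3.25, SE 0.15), and its copy eef2b (LOC110508425) did not pass (106, 109 and 135 CPM at 3 dpf, against 94, 103 and 116 CPM at 1 dpf). Of 121 translation factors, 91 were higher and 8 lower, with a median log2 fold change of 1.49. Of 148 splicing genes, 140 were higher and 1 lower, with a median of 1.56. The shares over all tested genes were 27.6% higher and 25.3% lower. The U5 helicase snrnp200 (LOC110525610), which unwinds U4/U6, was at 536, 559 and 474 CPM at 3 dpf, against 55.5, 57.5 and 43.6 CPM at 1 dpf (log2 3.33, SE 0.14). Summed levels of the splicing list were 33500, 35700 and 31600 CPM at 3 dpf, against 11200, 10900 and 10200 CPM at 1 dpf.

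**Figure D4:**
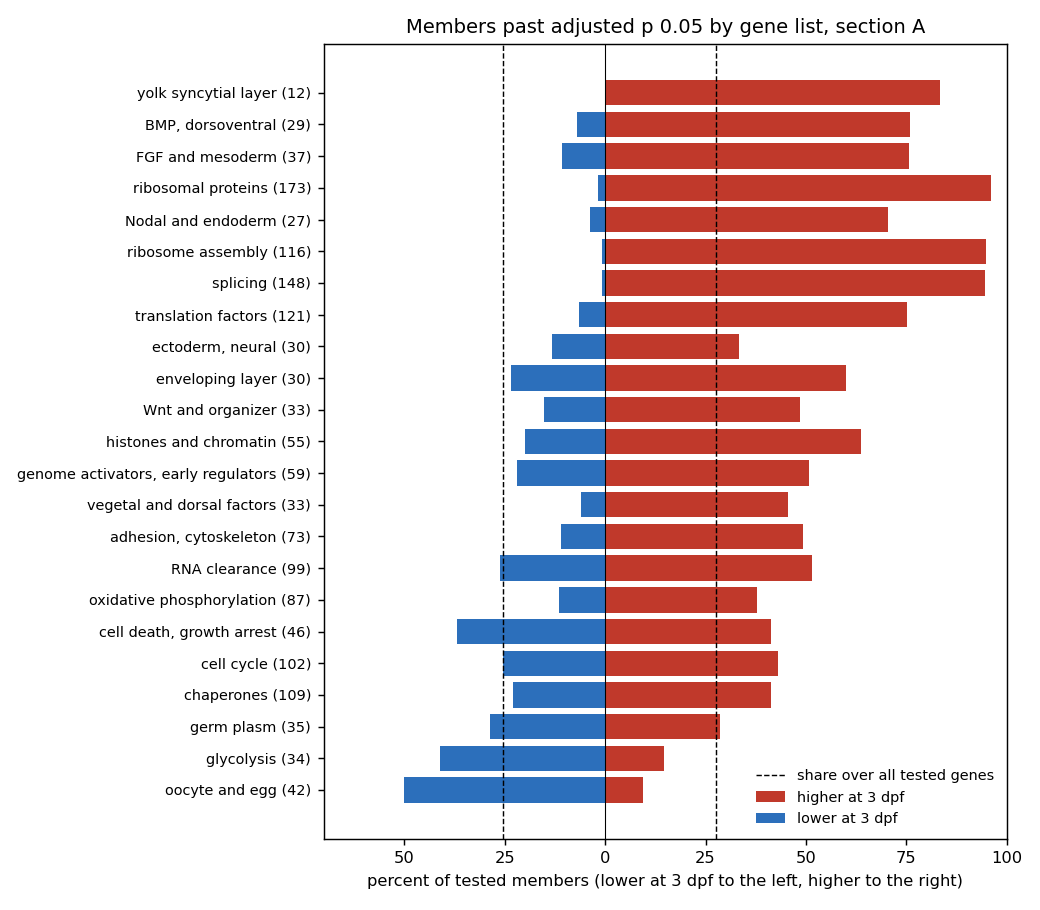
Percent of the tested members of each gene list (number in parentheses) that were higher (right) or lower (left) at 3 dpf in section A, ordered by median log2 fold change, with dashed lines at the shares over all tested genes (27.6% higher, 25.3% lower). Ribosomal proteins, ribosome assembly and splicing have over 94% of members higher, and the oocyte and glycolysis lists have more members lower than higher.

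Chaperones and chromatin proteins rose in part. The cytosolic chaperone hsp90ab1 was at 3030, 3110 and 2560 CPM at 3 dpf, against 334, 353 and 300 CPM at 1 dpf (log2 3.14, SE 0.12, adjusted p = 7.15e-06), and the constitutive Hsp70 gene hspa8 at 2870, 3070 and 2270 CPM, against 318, 303 and 268 CPM. Subunits of the chaperonin that folds actin and tubulin, such as cct8 (log2 1.92, SE 0.12), were also higher. Over the whole chaperone list 45 of 109 (41.3%) were higher and 25 (22.9%) lower, against 27.6% and 25.3% of all tested genes. The median was 0.20, and 33 were higher and 34 lower with library totals alone. The chromatin proteins hmgb2a (LOC110534497), a DNA-bending factor, at 1130, 1290 and 1060 CPM at 3 dpf, against 328, 299 and 298 CPM at 1 dpf, and chd4a/chd4b (LOC110496200), a nucleosome remodeller, at 764, 818 and 904 CPM, against 144, 145 and 117 CPM, were higher. The DNA methyltransferase dnmt3bb.2 was at 1200, 1200 and 1180 CPM at 3 dpf, against 564, 569 and 567 CPM at 1 dpf (log2 1.07, SE 0.08). Of 55 histone and chromatin genes 35 were higher and 11 lower, with a median log2 fold change of 1.04.

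Cell cycle genes changed in both directions. As background, cleavage cycles of fish embryos lack gap phases, which appear around the mid-blastula transition. The G1 cyclin ccnd1 (LOC110524590) was higher, at 94.8, 136 and 178 CPM at 3 dpf, against 11.1, 7.96 and 0 CPM at 1 dpf, and the kinase cdk4 at 111, 121 and 101 CPM, against 31.8, 31.3 and 32.9 CPM (log2 1.79, SE 0.13, adjusted p = 2.84e-05). The cyclin-dependent kinase inhibitor cdkn1a, p21, was at 41.2, 51.9 and 45.3 CPM at 3 dpf, against 1.32, 1.42 and 1.47 CPM at 1 dpf (log2 5.01, SE 0.23, adjusted p = 7.88e-06). Transcription factors of S-phase genes, e2f4 (LOC110498585) and e2f3 (LOC118937342), were higher at 75.6 ± 9.7 and 198 ± 26.9 CPM at 3 dpf, against 2.29 ± 1.19 and 51.2 ± 3.45 CPM at 1 dpf (SD, n = 3 each). Replication licensing gave the largest rise of the list, cdt1, with 396 CPM on average at 3 dpf, against 7.35 CPM at 1 dpf (log2 5.81, adjusted p = 0.000419). Among mitotic and meiotic genes that fell were aurka, Aurora kinase A, at 139, 137 and 132 CPM at 3 dpf, against 321, 305 and 330 CPM at 1 dpf (log2 -1.23, SE 0.1), and ccna1, the germline and early embryonic cyclin A, with 62.3 CPM on average, against 317 CPM. The copy wee1 (LOC110492278) fell as well, with 43.6 CPM on average at 3 dpf, against 145 CPM at 1 dpf. Of 102 members 44 (43.1%) were higher and 26 (25.5%) lower, against 27.6% and 25.3% of all tested genes. The share lower thus lay near that over all genes. The median was 0.24, and 35 were higher and 37 lower with library totals alone. Leaving out 1 dpf replicate 3 gave cdt1 a log2 fold change of 5.2.

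The list of cell death and growth arrest genes was split as well, with 19 of 46 (41.3%) higher and 17 (37%) lower. Over all tested genes the shares were 27.6% and 25.3%. With library totals alone 14 were higher and 21 lower, and with the replicate block 18 and 19. The median log2 fold change was 0.25. Some genes that stop growth or promote cell death rose, such as cdkn1a above, gadd45ga (19.6 CPM on average at 3 dpf, against 0.216 CPM at 1 dpf) and baxb (33.9, 28 and 31.5 CPM at 3 dpf, against 2.93, 3.18 and 1.58 CPM at 1 dpf, log2 3.62, SE 0.31). Lower members included the inhibitors of cell death xiap (74.7 CPM on average at 3 dpf, against 235 CPM at 1 dpf) and birc5b, survivin (9.54 CPM, against 51.1 CPM), the kinase plk3 (LOC110530313) (200, 156 and 137 CPM at 3 dpf, against 600, 643 and 651 CPM at 1 dpf) and both sesn1 copies.

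Among the largest falls were genes that the egg held at similar levels. The gene boka (LOC110508964), a relative of the cell death effector Bok, was at 10.7, 8.13 and 7.52 CPM at 3 dpf, against 93.3, 93 and 131 CPM at 1 dpf (log2 -3.58, SE 0.23, adjusted p = 1.57e-05), and at 96.4 CPM on average at 0 hpf. The microtubule linker hook1 (LOC110521604) was at 3.9, 0.903 and 2.03 CPM at 3 dpf, against 19.6, 30.8 and 28.7 CPM at 1 dpf (log2 -3.43, SE 0.42). The zinc-finger homeobox gene tshz2 was at 11.7, 7.68 and 6.3 CPM at 3 dpf, against 72.8, 77.5 and 99.6 CPM at 1 dpf (log2 -3.28, SE 0.26). Each had a 1 dpf level close to that of the egg. The transcriptional repressor spen (LOC110532368) had 20.7, 22.1 and 26.2 CPM at 3 dpf, against 168, 203 and 227 CPM at 1 dpf (log2 -3.11, SE 0.17, adjusted p = 9.88e-06), with the smallest SE of the 12. The others were bsx, 2 genes named ZNF22, cdc42ep3, slc44a4 (LOC110496108), klf6a, socs2 and rca2.1 (LOC110532575), with log2 fold changes from -3.31 to -2.99. The gene bsx and both ZNF22 genes were low throughout, averaging 0.461 CPM (bsx), 0.528 CPM (ZNF22 (LOC118938416)) and 0.909 CPM (ZNF22 (LOC110494918)) at 3 dpf, against 5.36, 5.94 and 7.73 CPM at 1 dpf.

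Of 42 tested genes of the oocyte and egg, 21 (50%) were lower and 4 higher, against 25.3% lower and 27.6% higher over all tested genes, with a median log2 fold change of -0.96, and their summed level was 3580, 3640 and 3570 CPM at 3 dpf, against 4350, 4250 and 4990 CPM at 1 dpf and 3800 to 4740 CPM at 0 hpf. The gene btg4, an adaptor that brings the CCR4-NOT deadenylase to egg mRNA, was at 39.7, 32.5 and 32.9 CPM at 3 dpf, against 191, 194 and 283 CPM at 1 dpf (log2 -2.66, SE 0.19, adjusted p = 2.81e-05). The RNA-binding zygote arrest relative zar1l was at 93.6, 97.6 and 126 CPM at 3 dpf, against 383, 358 and 404 CPM at 1 dpf (log2 -1.85, SE 0.14). The meiotic kinase mos (22.2 CPM on average at 3 dpf, against 88.6 CPM at 1 dpf), the oocyte factor figla (18.2 CPM, against 66.9 CPM) and the growth factor gdf9 (102 CPM, against 211 CPM) were also lower. The 4 higher members included both copies of ybx1, a general RNA-binding protein, with 681, 864 and 720 CPM at 3 dpf, against 147, 128 and 59.6 CPM at 1 dpf for ybx1. The egg linker histone h1m did not pass, at 45.1, 105 and 88.4 CPM at 3 dpf and 96.9, 76.8 and 63.1 CPM at 1 dpf (log2 0, adjusted p = 1).

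Germ plasm and vegetal factors were mixed. Of 35 germ plasm genes, 10 were higher and 10 lower, shares of 28.6% each that lie near those over all genes, and 7 were higher and 14 lower with library totals alone. The Balbiani body organizer buc (LOC110535186) fell to 26.6, 25.7 and 28 CPM at 3 dpf, against 56.4, 71.1 and 85.5 CPM at 1 dpf (log2 -1.4, SE 0.18, adjusted p = 0.000432), and the RNA-binding protein rbpms2b to 13.2, 12.2 and 14 CPM, against 42.3, 35.4 and 53.2 CPM. The germ cell helicase ddx4, vasa, was at 118, 94.4 and 114 CPM at 3 dpf and 90.2, 101 and 96.7 CPM at 1 dpf (log2 0.19, SE 0.13, adjusted p = 0.26), and piwil2 did not pass either (adjusted p = 0.25). The member with the lowest adjusted p, vrtn (LOC110522612), is a DNA-binding protein that acts outside germ cells as well and was at 637, 664 and 638 CPM at 3 dpf, against 169, 187 and 188 CPM at 1 dpf. Of 33 vegetal and dorsal genes, 15 (45.5%) were higher and 2 (6.06%) lower, against 27.6% and 25.3% of all tested genes, with a median of 0.46. Those that rose were mostly general RNA-binding and transport proteins, such as hnrnpaba (LOC110504804) (log2 1.6, SE 0.09) and magoh (log2 1.3, SE 0.14), besides wnt11f2. One copy of the dorsal determinant, hwa, was too low for the test in section A (1.46, 0 and 1.02 CPM at 3 dpf and 0.732, 2.48 and 1.81 CPM at 1 dpf), and trim36 (LOC110535019), which anchors vegetal microtubules in Xenopus, did not pass (adjusted p = 0.206).

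Of 99 genes for RNA decay, 51 (51.5%) were higher and 26 (26.3%) lower (38 and 31 with library totals alone). Their median log2 fold change was 0.45. Over all tested genes the shares were 27.6% and 25.3%, so the share lower lay near that over all genes. Argonaute, the effector of small RNA silencing, had the largest rise, with ago2 (LOC110488009) at 608, 460 and 483 CPM at 3 dpf, against 17.9, 24.4 and 6.11 CPM at 1 dpf (log2 5.03, SE 0.44, adjusted p = 6.01e-05). The second copy, ago2, averaged 483 CPM at 3 dpf and 34.2 CPM at 1 dpf (log2 3.83). The CCR4-NOT scaffold cnot1 averaged 885 CPM at 3 dpf, against 287 CPM at 1 dpf. Among those that fell was cpeb4a (LOC110504372), a translational regulator of egg mRNA, at 40.2, 34.3 and 38 CPM at 3 dpf, against 170, 168 and 125 CPM at 1 dpf (log2 -2.03, SE 0.16), and so did the antiproliferative genes btg2 (LOC110528374), btg3 and btg3 (LOC110533653). The exonuclease dis3l2 and the uridylyltransferase tut4 (LOC110524685) did not pass (log2 -0.02 and 0.03, adjusted p = 0.904 and 0.864).

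Genes of energy metabolism changed in both directions. Of 34 glycolysis genes, 5 (14.7%) were higher and 14 (41.2%) lower, against 27.6% and 25.3% of all tested genes. The median log2 fold change was -0.58. Pyruvate kinase pkma (LOC110506469) was at 26.8, 33 and 39.4 CPM at 3 dpf, against 104, 115 and 174 CPM at 1 dpf (log2 -1.98, SE 0.24, adjusted p = 0.000277), and triosephosphate isomerase tpi1a (LOC110488374) at 30.7, 18.1 and 27.4 CPM, against 87.6, 83 and 114 CPM. Among the higher members was the glucose transporter slc2a1b, at 21.7, 27.6 and 20.3 CPM at 3 dpf, against 2.05, 1.06 and 0.453 CPM at 1 dpf (log2 4.29, SE 0.47, and 4.98 without replicate 1 of 1 dpf), and hexokinase hk2 at 69.2, 70 and 73.6 CPM, against 14.9, 15.2 and 26 CPM. Of 87 nuclear genes of oxidative phosphorylation, 33 (37.9%) were higher and 10 (11.5%) lower, with a median of 0.35 (20 and 18 with library totals alone). The ATP synthase subunit atp5f1c was at 118, 135 and 109 CPM at 3 dpf, against 45.2, 39.6 and 42.9 CPM at 1 dpf (log2 1.5, SE 0.14), whereas atp5l fell to 7.31, 5.42 and 5.28 CPM, against 23.3, 21.6 and 31.2 CPM.

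Adhesion and cytoskeleton genes included several receptors and proteins of the extracellular matrix that appeared between the stages. Fibronectin fn1b (LOC110528732), a matrix protein on which mesoderm migrates, was at 67, 71.8 and 56.9 CPM at 3 dpf, against 1.9, 3.01 and 0.679 CPM at 1 dpf (log2 5.19, SE 0.4, adjusted p = 3.69e-05), and its receptor subunit itga5 (LOC110532566) at 32.7, 23.9 and 19.5 CPM, against 2.49, 1.77 and 1.81 CPM. The laminin chain lamb1a was at 73.9, 51.5 and 49.4 CPM at 3 dpf, against 1.32, 1.59 and 0.113 CPM at 1 dpf (log2 5.95, SE 0.53, and 5.33 without 1 dpf replicate 3), while lamc1 (LOC110530303), abundant in the egg, did not pass (241 ± 6.4 CPM at 3 dpf and 223 ± 26.1 CPM at 1 dpf, SD, n = 3 each, adjusted p = 0.465). The actin-severing protein cfl1 (LOC110533964) fell to 46.3, 41.6 and 45.5 CPM at 3 dpf, against 139, 136 and 163 CPM at 1 dpf (log2 -1.71, SE 0.13). Of 73 members 36 (49.3%) were higher and 8 (11%) lower, with a median of 0.45 (26 and 14 with library totals alone). Over all tested genes the shares were 27.6% and 25.3%. Of 4 sperm genes, which served as a marker list, 3 were higher and 1, the meiotic gene sycp3, was lower. Of the 6 other marker genes tested, the neuronal gene elavl4, cyp26a1 and tfa were higher. The muscle gene ckmb did not pass (log2 -0.71, adjusted p = 0.227) and was lower with the replicate block (log2 -0.67, adjusted p = 0.00464) and without the 1 dpf library of replicate 3 (log2 -1.05, adjusted p = 0.0175).

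The stage change in section A was set against that in sections B and E, with the embryo as a term of the fit. Sections of the same stage and replicate number were taken as the same embryo. Over 23010 genes tested, the change in A was greater than in B for 4527 (19.7%) and less for 4974 (21.6%), and greater than in E for 4670 (20.3%) and less for 4919 (21.4%). The count greater than in B was 2608 without the embryo terms and 2955 without replicate 1 of 1 dpf. The change of ribosomal protein genes was greater in A than in B in 163 of 174 cases, with a median difference of 1.93 on the log2 scale, and greater than in E in 146, with a median of 2.61. Ribosome assembly (109 of 116 greater than in B) and splicing (129 of 148) gave similar counts. Among Nodal and BMP genes, 3 of 27 and 4 of 29 were greater in A than in B, at median differences of 0.06 and 0.82. These shares were not above the 19.7% over all tested genes. A difference that missed the threshold does not show equal change. Some of these genes had few or no counts at 1 dpf and large errors against B, such as admp (2.56, SE 3.03) and ved (2.02, SE 2.49). Against E, 10 of 27 and 8 of 29 were greater (20.3% over all tested genes), with medians of 2.59 and 2.52, and many of these genes had few or no counts in E. The change of enveloping layer genes was greater in A than in B in 16 of 31 cases, among them evpla (a difference of 3.57 on the log2 scale, SE 0.69, adjusted p = 0.000245) and grhl3 (2.68, SE 0.54, adjusted p = 0.000338). For the yolk syncytial list, 1 of 12 was greater and 2 less than in B, against 19.7% and 21.6% of all tested genes. Against E, 6 of 12 were greater (20.3% over all tested genes), with a median of 4.54. Oocyte genes changed less in A than in B (that is, fell more or rose less) in 17 of 42 and than in E in 21 of 42. The fall of btg4 exceeded that in B by 2.01 and that in E by 2.51 on the log2 scale (differences of -2.01 and -2.51, adjusted p = 1.74e-06 and 3.24e-08).

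**Figure D5:**
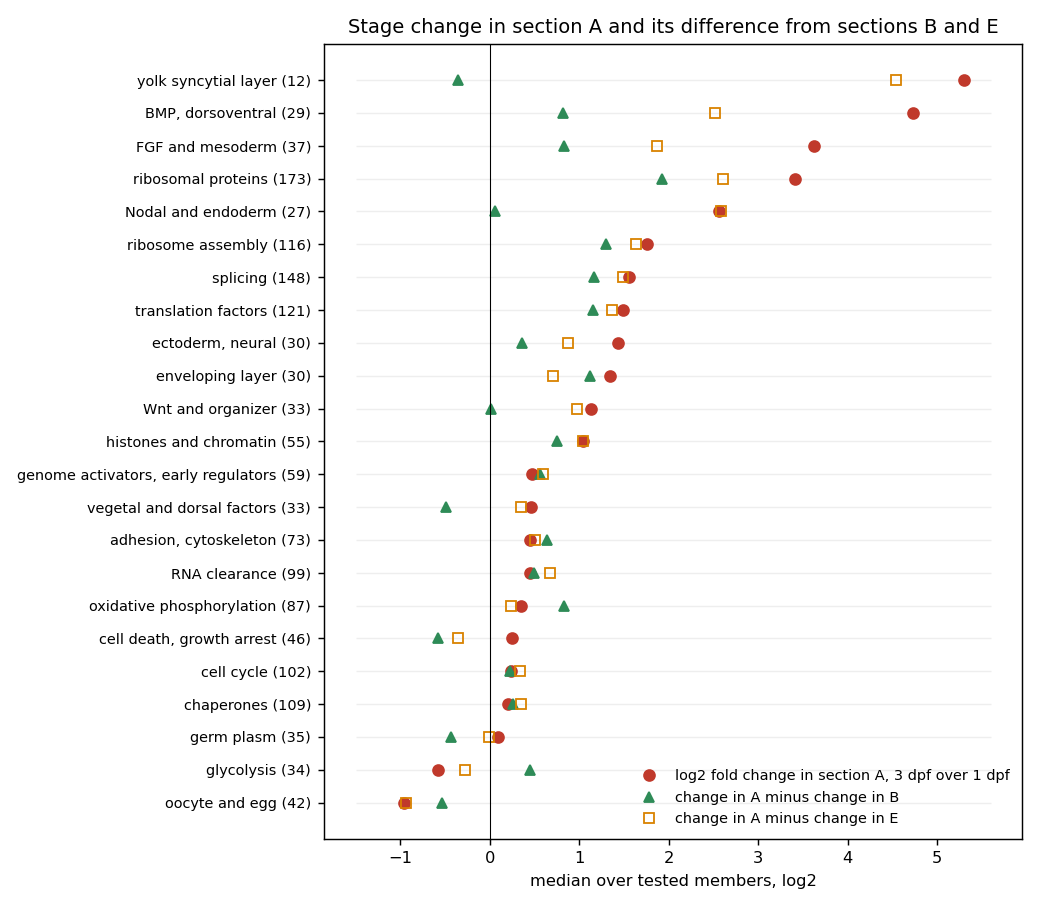
Median over the tested members of each gene list (number tested in section A in parentheses) of the log2 fold change in section A (circles, 3 dpf over 1 dpf), and of that change minus the change in section B (triangles) and in section E (squares). Ribosomal proteins lie at 3.41, 1.93 and 2.61, whereas the yolk syncytial list lies at 5.30 in A, below 0 against B and at 4.54 against E.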

How the data were processed

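RNA was extracted from sections with TRI Reagent and LiCl precipitation, depleted of ribosomal RNA and made into directional libraries from 30 ng, per the labels' protocols. The submitters' processing notes name fastp 0.23.4, STAR 2.7.11, HTSeq 2.0.4 and DESeq2. Neither build nor strandedness of the counts is stated there, and coordinates are left out. The deposited table holds raw counts per gene, made by the authors, for 55 libraries. Gene names came from the trout symbol or the zebrafish ortholog, and snoRNA hosts from a RefSeq table.

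The 3 dpf and 1 dpf libraries of section A were compared with edgeR 4.0.16 (R 4.3.3): TMM scaling, filterByExpr with a minimum count of 10, the quasi-likelihood F-test and Benjamini-Hochberg adjustment at 0.05. The change in A against that in B and E was tested as an interaction over the 30 libraries of both stages, with terms for embryos. The main test did not pair the stages, since the labels give the same replicate numbers but no shared source. Pairing by number was an alternative, the replicate block. Within a stage, sections of the same number were taken as the same embryo. Deviations from the stage means correlated at 0.12, 0.2 and 0.34 between stages within numbers. Across numbers the values were 0.22 and 0.15 between replicates 1 and 2 and negative with replicate 3. Deviations within a stage depend on each other, so these correlations are weak evidence for pairing. Genes low in replicate 3 at more than 1 stage are given under the other observations. Counting floors cover counting error only. Genes named are the 12 largest rises and falls among called named genes of at least 5 CPM whose groups do not overlap, and in each list up to 6 members with the smallest adjusted p and up to 3 that did not pass with the highest mean CPM; further genes were chosen after their values were seen. The members and lists were chosen with earlier results of these data known. Alternatives were other scalings and filters, DESeq2 1.42.0, the replicate block, all section A libraries and leaving out each library; leaving out replicate 3 of both stages was added after seeing the data. Some genes of the lists are not reported here.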

Additional observations from a re-analysis of the deposited data

Results flagged for a closer look

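Among the 12 largest rises and the 12 largest falls, 12 genes had a stage change in section A that differed from that in section B or E. The difference was tested as an interaction in edgeR with Benjamini-Hochberg adjustment. For id1 the change in A exceeded that in E by 5.88 on the log2 scale. All others were falls, and negative differences mean a greater fall in A. These genes were chosen by the size of their change in A, which favours a greater change there than in B or E. The other rises exceeded E by 5.05 (apoc1 (LOC110510206), SE 17907.84) to 7.32 (slc22a5, SE 48248.38) without passing. Errors of this size leave these differences unknown. Against B none of the 12 rises passed, with differences from -3.21 (ftr14) to 4.1 (krt5). Many of them had no count at 1 dpf, so missing the threshold does not show equal change.

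The change in A minus that in B was -2.13 for boka (LOC110508964), -2.17 for hook1 (LOC110521604), -2.08 for tshz2, -1.89 for klf6a and -1.23 for spen (LOC110532368). It was -2.51 for cdc42ep3, -2.41 for slc44a4 (LOC110496108), -2.77 for socs2, -2.33 for rca2.1 (LOC110532575), -3.08 for ZNF22 (LOC118938416) and -2.89 for ZNF22 (LOC110494918).

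The change in A minus that in E was -3.67 for boka (LOC110508964), -3.49 for hook1 (LOC110521604), -3.22 for tshz2, -3.33 for klf6a and -2.95 for spen (LOC110532368). It was -2.99 for cdc42ep3, -3.27 for slc44a4 (LOC110496108), -3.1 for socs2, -3.02 for rca2.1 (LOC110532575), -3.65 for ZNF22 (LOC118938416) and -2.75 for ZNF22 (LOC110494918).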

How the results depend on the processing

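Over the alternatives the count of higher genes lay between 4603 (library totals alone) and 6693 (without replicate 3 of both stages, chosen after seeing the data), and that of lower genes between 4359 (without 1 dpf replicate 2) and 7784 (library totals alone). With the replicate block 6130 genes were higher and 5762 lower. Genes whose change was greater in A than in B numbered 2608 without the embryo terms, against 4527 with them, and 2955 to 5018 when one library's embryo was left out, the lowest without 1 dpf replicate 1. Higher minus lower members of the cell cycle list came to -2 with library totals alone, and of the cell death list to -7 there, -1 with the replicate block and -3 (without 1 dpf replicate 2) to 4 (without 1 dpf replicate 3) when one library was left out; the cause was not tested. The naming rule took called genes with the largest changes or the smallest adjusted p, which favours keeping a call. Of 156 called genes among the 224 chosen by the naming rule, 154 kept direction and call under each alternative that gave them a value (12 of the 224 were not tested at a minimum count of 50). The exceptions were bsx (log2 -3.33, adjusted p = 0.0688 with all section A libraries) and dnah9, whose adjusted p was 0.105 without 3 dpf replicate 3, 0.0643 without 1 dpf replicate 2 and 0.094 without replicate 3 of both stages. Without 1 dpf replicate 3, 17 named genes that had missed the threshold passed it. Depth limits genes near 1 CPM, where a library's 3-count floor lies at up to 1.19 CPM.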

Other observations

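In section A, 6 genes were at 1 CPM or less in replicate 3 of both stages and at 10 CPM or more in replicates 1 and 2 of both, against 0 genes for replicate 1 and 0 for replicate 2. Among them was asb2a.2, at 19.7, 21.7 and 0 CPM at 3 dpf, against 37.3, 32.9 and 0.113 CPM at 1 dpf. The creatine kinase copy ckmb (LOC110533491) was close to this pattern, at 58.3, 52.4 and 1.02 CPM at 3 dpf, against 49, 56.2 and 0 CPM at 1 dpf. At 1 hpf the 6 genes were at 13.8 CPM or more in replicate 1 and at 1.47 CPM or less in replicate 3. At 0 hpf they did not all follow the number, as LOC110534240 was at 20.9, 17.1 and 19.3 CPM. Whether the replicate number stands for a shared source was not tested. All these genes were picked by their values, so the counts are a description.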
